A study of Macaca mulatta with 24 samples.

Results

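The genes of fatty acid uptake and binding are the molecules that bring fatty acids from the blood into a fat cell and prepare them for storage. Of the 10 named genes, *LPL*, *GPIHBP1*, *VLDLR*, *CD36*, *SLC27A1*, *SLC27A4*, *FABP4* and *ACSL1* were rows of the deposited count table, so 8 of its 32386 genes are described. *FABP5* and *FABP3* were not analysed here, because none of the identifiers paired with these symbols was a row of the table. A row was assigned to a gene through a table of gene names, or for *FABP4* and *GPIHBP1* through the supplementary tables of the study, and all 8 genes passed the filter on low counts. For *FABP4*, the row ENSMMUG00000041192 with 2368578 counts over the 24 animals was used, and ENSMMUG00000020987, the other row with this name, held 970 counts.

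Fatty acids circulate in blood mainly as triglycerides inside lipoproteins, which are too large to enter cells. Lipoprotein lipase, made by adipocytes, is carried to the capillary wall by GPIHBP1 and releases the fatty acids there, while the VLDL receptor binds triglyceride-rich lipoproteins at the cell surface. The released fatty acids enter the adipocyte with the help of CD36 and the transport proteins of the SLC27 family, are held in the cytosol by FABP4, and are joined to coenzyme A by acyl-CoA synthetases such as ACSL1 before they are built into stored triglyceride or oxidised.

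The measurements were RNA-seq of omental white adipose tissue (WAT), a visceral fat depot, from 24 female rhesus macaques in 4 groups of 6. Control animals (*C*) carried cholesterol implants and ate monkey chow, *T* animals carried testosterone implants and ate chow, *WSD* animals carried cholesterol implants and ate a high-fat Western-style diet, and *T* + *WSD* animals received testosterone and the Western-style diet. Treatment began before puberty and ran for 3 years, testosterone was raised mildly, and the 6 animals per group were picked by the study from larger groups to represent their overall findings, such as fat mass and insulin. The labels give an age of 4 years for all animals, whereas the methods of the study give an older age at biopsy, and age was not used. Each library came from a separate animal, so the spread between replicates holds differences between animals. Because the biopsies were bulk tissue, fewer cells of a type and less RNA per cell cannot be told apart.

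Depth lay between 6899185 and 28270776 counts per library (median 20630512.5). In 8 libraries, 2 per group, a single gene, ENSMMUG00000038258, took between 9.92 and 54.7% of the counts, against 0.879 to 2.51% in the other 16, and these 8 libraries are treated below as a library batch. The labels name no batch, so this grouping rests on that share alone. Markers of the labelled tissue were present, with *ADIPOQ* and *PLIN1*, which adipocytes make, at mean levels of 893 and 1382 CPM in *C*. One control library stood apart. *C* replicate 1 had the lowest summed adipocyte and endothelial markers of all 24 libraries (1675 and 1167 CPM). Its sum of mesothelial markers, the genes of the cells that line the omentum, was the highest (38894 CPM). Of that sum, 35030 CPM came from 1 gene, *ITLN1*. The replicate also had the lowest values of *CD36*, *LPL*, *FABP4*, *GPIHBP1* and *ACSL1*. The *T* + *WSD* differences of *LPL*, *GPIHBP1*, *VLDLR*, *CD36*, *FABP4* and *ACSL1* from *C* are given with and without it, as are the correlations that passed. Results for cell type markers and for other single genes of the same path are given with it only. Levels are normalised read counts (CPM, the counts scaled to a library of 1000000) on library sizes scaled by TMM, given as mean ± SD with n = 6 per group, and they are compared within a gene only, since no gene lengths were used. A gene was called when its adjusted p was under 0.05 and its fold change over 1.5. The value after ± beside a log2 fold change is the standard error of the fit. Counts of animals beyond the range of another group are descriptions. Except for *LSR*, the share of all genes with such counts was not worked out.

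*LPL*, which encodes the lipase, was highest in both groups on the Western-style diet. The lowest, median and highest values were 682, 5095 and 7725 CPM in *C*, and 2947, 5346 and 8425 CPM in *T*. They were 4535, 7819.8 and 12362 CPM in *WSD*, and 5371, 9231.5 and 10988 CPM in *T* + *WSD*. Means increased in the order *C* (4695 ± 2320), *T* (5493 ± 1867), *WSD* (7954 ± 2888) and *T* + *WSD* (8565 ± 2079), and every group overlapped every other. Of the 6 *T* + *WSD* animals, 4 lay above all controls. Against *C*, the log2 difference was 0.87 ± 0.37 (adjusted p = 0.106) in *T* + *WSD*, and 0.76 ± 0.37 (adjusted p = 0.272) in *WSD*, so neither passed the test. The interval of the *T* + *WSD* difference ran from 0.10 to 1.63, and without *C* replicate 1 the difference was 0.66 ± 0.27 (adjusted p = 0.130).

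*GPIHBP1* encodes the protein of capillary endothelial cells that holds lipoprotein lipase at the vessel wall. Its lowest, median and highest levels were 21.5, 41.9 and 66.1 CPM in *C*, and 43.6, 56.3 and 99.5 CPM in *T*. In *WSD* they were 31.8, 68.2 and 132.4 CPM, and in *T* + *WSD* 44.2, 78.9 and 107 CPM. All 3 treated groups had higher means than *C* (43.0 ± 15.8), with *T* + *WSD* at 75.6 ± 23.4, *WSD* at 74.0 ± 34.2 and *T* at 61.8 ± 21.2 CPM, and again all ranges overlapped. The log2 difference from *C* was 0.81 ± 0.30 in *T* + *WSD* (adjusted p = 0.0666) and 0.79 ± 0.30 in *WSD* (adjusted p = 0.184), and that between *T* + *WSD* and *WSD* was 0.02 ± 0.30, with an interval from -0.60 to 0.64. The *T* + *WSD* difference crossed the threshold with DESeq2 (adjusted p = 0.0383), with the library batch as a covariate (0.0436), and without *C* replicate 5 (0.0321), *WSD* replicate 19 (0.0469) or 21 (0.0482), or *T* + *WSD* replicate 12 (0.0453), and it was 0.69 ± 0.30 (adjusted p = 0.146) without *C* replicate 1.

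*VLDLR* was the gene of the set with the smallest adjusted p, and it fell in *T* + *WSD*. It encodes a receptor of the LDL receptor family that binds VLDL and other triglyceride-rich particles. Its lowest, median and highest levels were 49.4, 74.7 and 106 CPM in *C*, 44.3, 85.4 and 93.0 CPM in *T*, 43.8, 47.5 and 108 CPM in *WSD*, and 34.4, 37.4 and 54.3 CPM in *T* + *WSD*. Of the 6 *T* + *WSD* animals, 5 lay below every control and below every *WSD* and every *T* animal. The *WSD* group was split, with 5 animals between 43.8 and 52.7 CPM and replicate 24 at 108 CPM. *VLDLR* fell by 0.92 ± 0.23 on the log2 scale against *C* (adjusted p = 0.0115, interval -1.40 to -0.44) and by 0.91 ± 0.23 against *T* (adjusted p = 0.0261, interval -1.38 to -0.43). The difference between *T* + *WSD* and *WSD* was -0.52 ± 0.23 (adjusted p = 0.203) with all animals and -0.24 without *WSD* replicate 24, and that between *WSD* and *C* was -0.40 ± 0.23 (adjusted p = 0.351).

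The fall of *VLDLR* against *C* passed the test in all 24 fits that left out 1 animal, at log2 values from -1.03 to -0.78 and adjusted p up to 0.0365, the latter without *C* replicate 1. The fall against *T* did not pass without *T* replicate 16, 17 or 18 or *T* + *WSD* replicate 8, 9, 10 or 12 (adjusted p from 0.0517 to 0.0548). Within the 16 libraries outside the batch the difference from *C* was -0.68 ± 0.29 (adjusted p = 0.194), and within the 8 libraries of the batch -1.30 ± 0.27 (adjusted p = 0.326). For *T* + *WSD* against *T* these values were -0.91 ± 0.29 (adjusted p = 0.0829) and -0.86 ± 0.26 (adjusted p = 0.744). Both directions were thus the same in both sets of libraries, and neither difference passed the test in either set.

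*CD36* encodes the membrane protein also known as fatty acid translocase. Its lowest, median and highest levels were 478, 1543 and 2187 CPM in *C*, 893, 1555 and 2434 CPM in *T*, 1206, 1782 and 2858 CPM in *WSD*, and 1977, 2404 and 3358 CPM in *T* + *WSD*. The *T* + *WSD* group was the highest (2484 ± 476, against 1459.8 ± 627 in *C*, 1568 ± 507 in *T* and 1886 ± 592 in *WSD*), and 5 of its 6 animals lay above every control, yet the ranges overlapped. The log2 difference was 0.77 ± 0.28 against *C* (adjusted p = 0.0651), 0.66 ± 0.28 against *T* (adjusted p = 0.144) and 0.40 ± 0.28 against *WSD* (adjusted p = 0.454), none of which passed the test. Against *T* it passed with only these 2 groups in the fit (0.69 ± 0.21, adjusted p = 0.0435). Against *C* it passed with DESeq2 (adjusted p = 0.0333) and without *C* replicate 4 (0.92 ± 0.29, adjusted p = 0.0392), and it was 0.60 ± 0.24 (adjusted p = 0.113) without *C* replicate 1.

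*SLC27A1* and *SLC27A4*, which encode the fatty acid transport proteins FATP1 and FATP4, did not pass the test in any comparison. *SLC27A1* ranged from 19.7 to 28.6 CPM (median 22.7) in *C*, from 23.8 to 47.0 CPM (median 28.2) in *T*, from 16.5 to 28.5 CPM (median 23.5) in *WSD*, and from 17.4 to 33.7 CPM (median 23.8) in *T* + *WSD*. The *T* group had the highest mean (30.6 ± 8.50, against 23.1 ± 3.43 in *C*), with a log2 difference from *C* of 0.41 ± 0.17 (unadjusted p = 0.0257, adjusted p = 0.547), and this value was 0.25 without *T* replicate 16, the animal at 47.0 CPM. Group means of *SLC27A4* stayed between 19.6 ± 2.92 in *T* and 21.4 ± 3.44 CPM in *WSD*, and all 24 animals lay between 15.6 and 27.1 CPM. Its 6 differences were the most narrowly bounded of the set, and that between *T* + *WSD* and *C* was 0.01 ± 0.11 with an interval from -0.22 to 0.24.

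*FABP4*, which encodes the abundant fatty acid binding protein of the adipocyte cytosol, rose in *T* + *WSD* against *C*. The lowest, median and highest levels were 1346, 3933 and 5146 CPM in *C*, 3199, 4387 and 6272 CPM in *T*, 3219, 5316 and 7283 CPM in *WSD*, and 4305, 6611 and 8529 CPM in *T* + *WSD*. As with *LPL*, *CD36* and *GPIHBP1*, the means ran upward from *C* (3703 ± 1434) over *T* (4528 ± 1165) and *WSD* (5260.3 ± 1649) to *T* + *WSD* (6537 ± 1571), and 5 of 6 *T* + *WSD* animals exceeded all controls although the ranges overlapped. The difference from *C* was 0.82 ± 0.28 in *T* + *WSD* (adjusted p = 0.0429, interval 0.25 to 1.39), 0.51 ± 0.27 in *WSD* (adjusted p = 0.323) and 0.29 ± 0.27 in *T* (adjusted p = 0.787). How reads were counted, and whether by strand, is not given in the sources used here, so reads shared with related genes of the FABP family or with overlapping genes may have been counted differently here.

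The *FABP4* call was close to the threshold. It was lost without any 1 of 9 animals, *C* replicates 1, 3, 5 and 6 and *T* + *WSD* replicates 7 to 11, with log2 values from 0.66 to 0.87 and adjusted p from 0.0507 to 0.0960 in those fits. It was also lost without the filter on low counts (adjusted p = 0.0607) and with only *C* and *T* + *WSD* in the fit (adjusted p = 0.0757). Without *C* replicate 1 the difference was 0.66 ± 0.24 (adjusted p = 0.0824). Within the 16 libraries outside the batch the difference was 0.77 ± 0.30 (adjusted p = 0.168), and within the 8 of the batch 1.004 ± 0.66 (adjusted p = 0.528).

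*ACSL1* encodes the main long-chain acyl-CoA synthetase of adipocytes. Levels ran from 199 to 2205 CPM (median 1316) in *C*, from 1236 to 1914 CPM (median 1358.5) in *T*, from 1018 to 3999 CPM (median 1727) in *WSD*, and from 1188 to 1462 CPM (median 1319.7) in *T* + *WSD*. The 6 *T* + *WSD* animals lay within the range of the controls and were the most alike, with a coefficient of variation of 7.72%, against 59.8% in *C*, 53.8% in *WSD* and 17.6% in *T*. No test of the spread was run. The *WSD* mean was the highest (2093 ± 1127), followed by *T* (1446 ± 255), *T* + *WSD* (1315 ± 101) and *C* (1304 ± 780), and the log2 difference between *T* + *WSD* and *C* was 0.01 ± 0.38, with a wide interval from -0.77 to 0.79, and -0.20 ± 0.29 without *C* replicate 1. The difference between *T* + *WSD* and *WSD* was -0.67 ± 0.38 (adjusted p = 0.330), and -0.38 without *WSD* replicate 20, the animal at 3999 CPM.

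**Figure D1:**
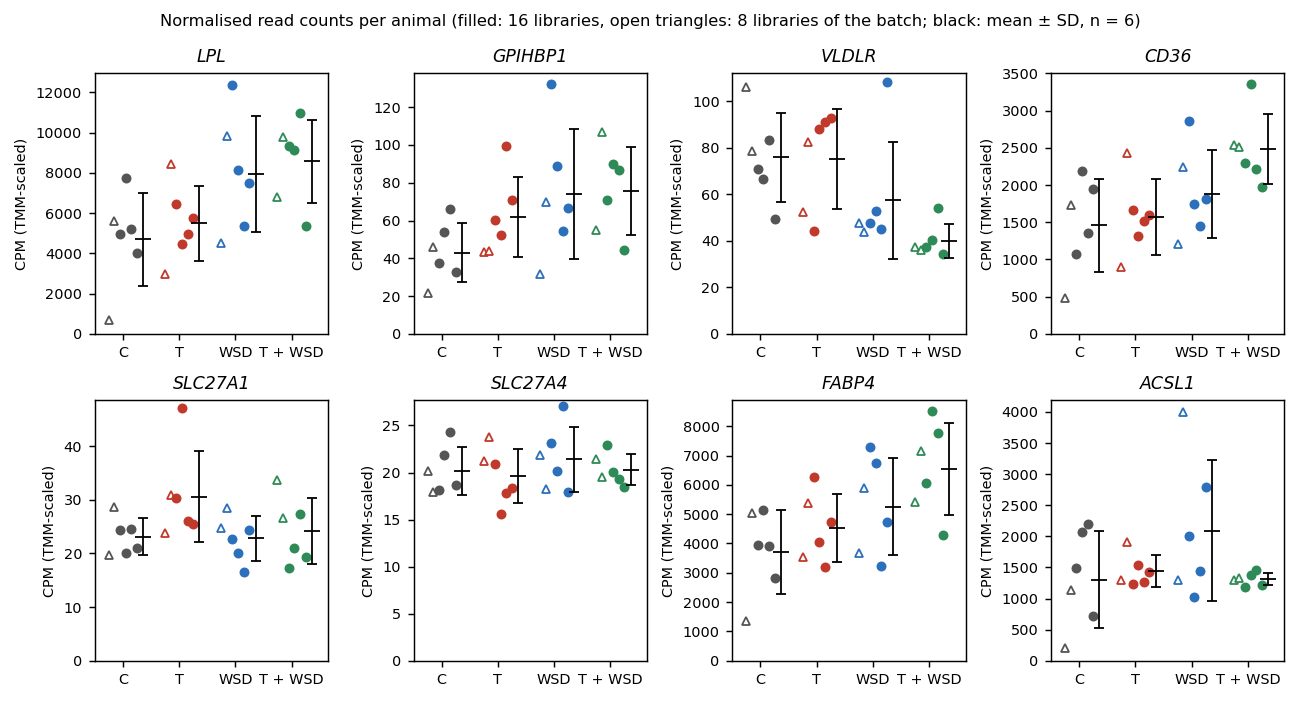
Normalised read counts (CPM on TMM-scaled library sizes, linear axes from 0) of the 8 genes, with 1 point per animal, open triangles for the 8 libraries of the batch, and the mean ± SD of each group of 6 in black. *LPL*, *GPIHBP1*, *CD36* and *FABP4* have means that run upward from *C* to *T* + *WSD*, *VLDLR* is lowest in *T* + *WSD* (34.4 to 54.3 CPM), and the *T* + *WSD* animals are close together in *ACSL1* (1188 to 1462 CPM).

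Taken as a set, 2 of the 8 genes were called in *T* + *WSD* against *C*, *FABP4* higher and *VLDLR* lower, where 10% of all 15207 tested genes were called, 4.72% higher and 5.29% lower. At an unadjusted p under 0.05 there were 5 of 8, with *CD36*, *LPL* and *GPIHBP1* added, against 32.1% of all genes. The median log2 difference of the 8 genes was 0.42, and that of all tested genes -0.04. Against *T*, the 1 gene called was *VLDLR*, which was lower, where 3.77% of all genes were called and 1.43% called lower. *CD36* was the other gene with an unadjusted p under 0.05, where 25.9% of all genes had one. The comparisons of *T* + *WSD* with *C* and with *T* use the same *T* + *WSD* animals, so their values for *VLDLR* are not separate evidence.

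Neither treatment alone gave a call in the set. With edgeR and with DESeq2, 0 of the 8 genes were called in *WSD* against *C*, and *GPIHBP1* alone had an unadjusted p under 0.05 (0.0157), where 0% of all genes were called with edgeR and 18.5% had such a p. For *T* against *C*, both tools again called 0 of 8, *SLC27A1* was the only one with an unadjusted p under 0.05, and 0% of all genes were called with edgeR and 8.63% had such a p. DESeq2 called 238 of 15027 genes in *WSD* against *C* and 7 of 24157 in *T* against *C*. Log2 differences were above 0 for 6 of 8 genes in *WSD* and for 6 of 8 in *T*, with medians of 0.44 and 0.19, and 47.6 and 46.5% of all genes were above 0. Both comparisons share the control animals, including *C* replicate 1, and without it the *T* differences of *CD36*, *LPL*, *ACSL1* and *VLDLR* changed sign (-0.08, -3.65e-05, -0.07 and 0.11), while the *WSD* differences kept their signs, with values of 0.19 for *CD36*, 0.54 for *LPL*, 0.34 for *FABP4* and 0.66 for *GPIHBP1*.

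The addition of testosterone to the Western-style diet was tested as *T* + *WSD* against *WSD*, with 0 of 8 genes called by either tool and 0.815% of all genes called with edgeR. With DESeq2, 431 of 16445 genes were called. *VLDLR* was the 1 gene with an unadjusted p under 0.05 (0.0327), against 20% of all genes. The interaction asks whether the effect of testosterone depends on the diet. At an adjusted p under 0.1, 0.809% of all genes and 0 of the 8 were called with edgeR, DESeq2 also called 0 of the 8, and none had an unadjusted p under 0.05, where 13.5% of all genes did. Over all genes, DESeq2 called 481 of 17391 in the interaction. The interaction coefficients closest to the threshold were those of *VLDLR* (-0.51 ± 0.32, adjusted p = 0.519) and *ACSL1* (-0.82 ± 0.53, adjusted p = 0.538). Their intervals ran from -1.18 to 0.16 and from -1.93 to 0.29.

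**Figure D2:**
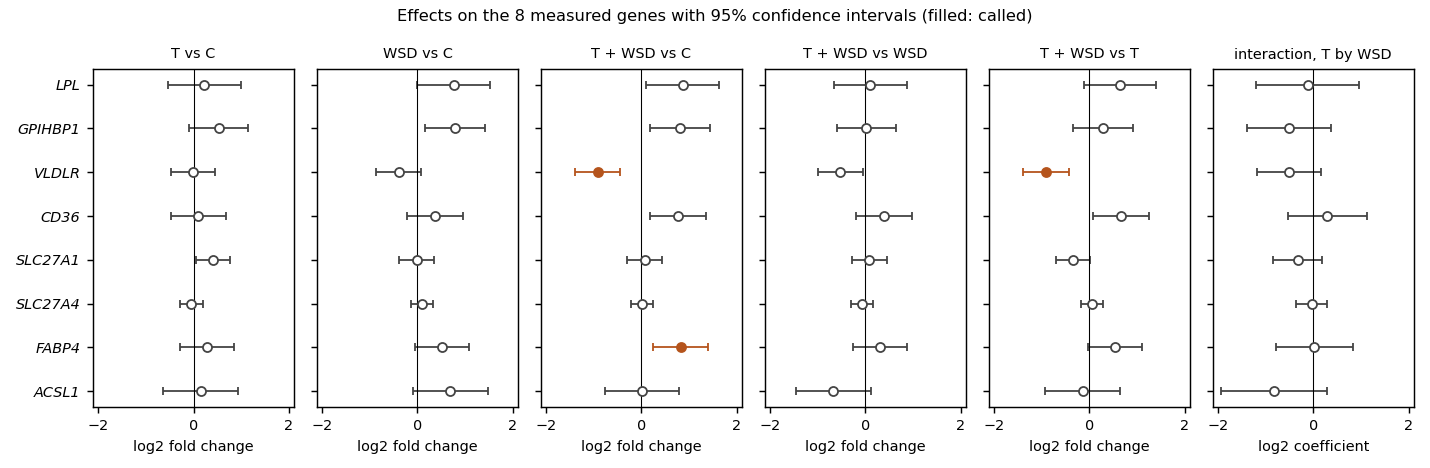
Log2 fold changes of the 8 genes in the 5 pairwise comparisons and the interaction coefficient, each with its 95% confidence interval from the edgeR fit, filled where called. Filled points are *VLDLR* against *C* (-0.92) and against *T* (-0.91) and *FABP4* against *C* (0.82), while *SLC27A4* has the narrowest intervals and *LPL* and *ACSL1* the widest.

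The levels of cell type markers moved with these results. When *T* + *WSD* was set against *C*, the endothelial list had 9 of its 14 tested genes higher and 0 lower, with *PECAM1* at 0.88 ± 0.16 and *VWF* at 0.97 ± 0.22 (adjusted p = 0.0029 and 0.0074), and the mesothelial list had 8 of 10 lower and 0 higher, with *KRT19* at -2.66 ± 0.50 and *MSLN* at -2.99 ± 0.66 (adjusted p = 0.0032 and 0.0065). Among 10 adipocyte markers only *LEP*, the gene of leptin, was called, at 2.20 ± 0.74 (adjusted p = 0.0442), and 8 of 10 had a positive value. Among 10 macrophage markers *MSR1* (1.66 ± 0.50) and *ITGAX* (1.77 ± 0.53) were higher, among 7 of smooth muscle and pericytes *TAGLN*, *RGS5* and *NOTCH3*, and among 10 of fibroblasts *DPT*, and 0 of 4 lymphocyte markers were called. Over all genes 4.72% were called higher and 5.29% lower. Of 4 striated muscle markers *TNNT1* was lower (-2.49 ± 0.46, adjusted p = 0.0032), while the other 3 had values above 0 without passing, such as *ACTA1* (2.98 ± 1.37, adjusted p = 0.134) and *CKM* (3.59 ± 1.45, adjusted p = 0.0876), and the median of the list was 1.88. Summed over its list, the endothelial level ran from 1167 to 2030 CPM in *C* and from 2324 to 3581 CPM in *T* + *WSD*. These ranges did not overlap, and how often other sums would do so was not worked out. The adipocyte sum ran from 1675 to 12506 CPM in *C* and from 12068 to 16361 CPM in *T* + *WSD*. The mesothelial sum ran from 2726 to 38894 and from 235 to 3070 CPM. Most of it was *ITLN1*, with a mean of 10259 of 11904 CPM in *C* and 1058 of 1333 CPM in *T* + *WSD*. The control values of 1167, 1675 and 38894 CPM were all those of *C* replicate 1, and the marker calls are given with it only. Against *T*, 7 of 10 mesothelial markers were lower, and 1 of 14 endothelial and 3 of 10 macrophage markers were higher, where 1.43% of all genes were called lower and 2.34% higher.

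The part of these tissue differences in the gene values was not measured. A list's mean was added as a covariate, but the lists themselves differed between the groups. Tissue and treatment therefore cannot be told apart in these fits. With the mesothelial, endothelial or adipocyte list in the fit, the *T* + *WSD* difference from *C* became 0.42, 0.33 and 0.22 for *FABP4*, and -0.48, -0.62 and -0.70 for *VLDLR*, and no gene of the set was called. For *LPL* it became 0.34, 0.07 and 0.06, for *CD36* 0.28, 0.07 and 0.21, and for *GPIHBP1* 0.11, -0.04 and 0.44. *VLDLR* against *T* stayed called with the adipocyte list (-0.83 ± 0.23, adjusted p = 0.0354) and not with the mesothelial (-0.55 ± 0.30) or endothelial list (-0.76 ± 0.25). In these fits group and marker level share much of their variation, and the number of all genes called in *T* + *WSD* against *C* fell from 1522 to 0, 0 and 2.

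**Figure D3:**
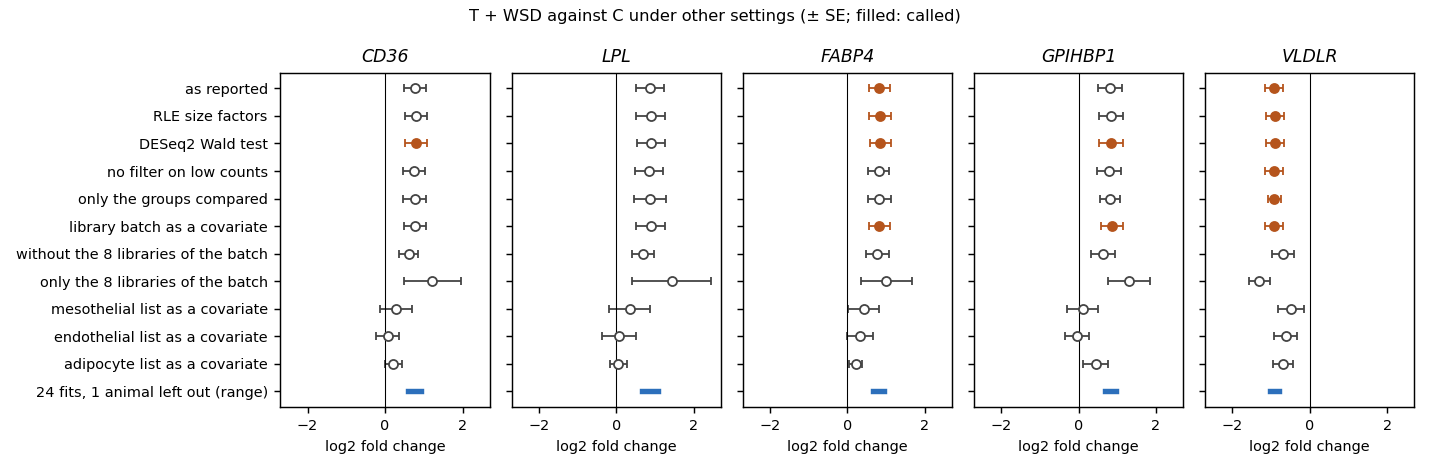
Log2 fold change of *T* + *WSD* against *C* for 5 genes with the setting as reported and with 10 others (points ± SE, filled where called), and the range over 24 fits that each left out 1 animal (blue bars). *VLDLR* stays below 0 in every setting shown, and *FABP4* stays above 0, with values nearest 0 when a marker list is a covariate.

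Within groups, *LPL*, *CD36*, *FABP4* and *GPIHBP1* varied together from animal to animal. This was measured on deviations from the group means of log2 CPM in all 24 animals, with permutation of animals within groups, for all 28 pairs of the 8 genes, of which 7 had an adjusted p under 0.05 for Pearson's r. The closest pair was *LPL* and *FABP4*, with r = 0.90 and rho = 0.87 (permutation p = 1e-05 for both, the smallest that the 100000 resamples can give, adjusted p = 0.00028), and r was 0.86 without the 2 animals farthest from the median of *LPL*. *CD36* followed *LPL* with r = 0.88 and rho = 0.73 (permutation p = 2e-05 and 0.00025, adjusted p = 0.00028 and 0.0035), and *FABP4* with r = 0.77 and rho = 0.71 (permutation p = 0.00048 and 0.00045, adjusted p = 0.00336 and 0.0042). The value for *CD36* and *LPL* was 0.72 without the 2 farthest animals, 0.60 in the 16 libraries outside the batch and 0.97 in the 8 of the batch. For *CD36* and *FABP4* these values were 0.58, 0.52 and 0.93, and for *LPL* and *FABP4* the 16 and the 8 libraries gave 0.88 and 0.99. In the 8, r rests only on the difference between the 2 animals of each group, and the control pair holds *C* replicate 1. Without *C* replicate 1, r was 0.84 for *LPL* and *FABP4*, 0.78 for *CD36* and *LPL*, and 0.60 for *CD36* and *FABP4*.

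*GPIHBP1* was related to the same 3 genes, most closely to *LPL* (r = 0.68, rho = 0.64, permutation p = 0.00022 and 0.00162, adjusted p = 0.00205 and 0.0103), with 0.64 without the 2 farthest animals, 0.75 in the 16 libraries and 0.77 in the 8. With *FABP4* its r was 0.66 and rho 0.60 (permutation p = 0.00139 and 0.00406, adjusted p = 0.00778 and 0.0189), and with *CD36* 0.57 and 0.52 (permutation p = 0.00633 and 0.0149, adjusted p = 0.0253 and 0.0523). Without *C* replicate 1 the r of *GPIHBP1* was 0.65 with *LPL*, 0.57 with *FABP4* and 0.45 with *CD36*. *ACSL1* and *LPL* gave r = 0.79 and rho = 0.68 (permutation p = 0.0027 and 0.00184, adjusted p = 0.0126 and 0.0103), a relation that rested in part on *C* replicate 1, since r was 0.47 without it and 0.38 in the 16 libraries outside the batch. *VLDLR* and *SLC27A4* had no r with an adjusted p under 0.05 with any other gene of the set, and *SLC27A1* had none either, although its rho with *ACSL1* was 0.49 (permutation p = 0.00997, adjusted p = 0.0399).

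The same deviations were set against the summed adipocyte, endothelial and mesothelial markers, which gave 24 relations, 8 of them with an adjusted p under 0.05 for Pearson's r. *LPL*, *CD36* and *FABP4* followed the adipocyte sum, with r = 0.93, 0.87 and 0.86 and rho = 0.86, 0.82 and 0.82 (permutation p = 1e-05, 7e-05 and 2e-05 for r, adjusted p = 0.00024, 0.00056 and 0.00024). These were 0.78, 0.71 and 0.76 without the 2 farthest animals, 0.69, 0.54 and 0.77 in the 16 libraries outside the batch, and 0.996, 0.970 and 0.989 in the 8. Again, the values in the 8 rest only on the difference between the 2 animals of each group, *C* replicate 1 among them. Without *C* replicate 1 the values were 0.80, 0.74 and 0.76. For *ACSL1* and the adipocyte sum r was 0.81 and rho 0.62 (permutation p = 0.00193 and 0.00561, adjusted p = 0.00926 and 0.0269), falling to 0.50 without the 2 farthest animals, 0.51 without *C* replicate 1 and 0.40 in the 16 libraries. *GPIHBP1* followed the endothelial sum with r = 0.68 and rho = 0.66 (permutation p = 0.00082 and 0.00169, adjusted p = 0.00492 and 0.0101). This r was 0.68 without the 2 farthest animals, 0.61 without *C* replicate 1, and 0.59 both in the 16 libraries and in the 8. For *VLDLR* the values against the adipocyte, endothelial and mesothelial sums were -0.23, -0.17 and 0.46, with adjusted p of 0.371, 0.505 and 0.0663. Most of the mesothelial sum was *ITLN1*. The remaining relations with an adjusted p under 0.05 were those of *CD36* and *LPL* with the endothelial sum (r = 0.61 and 0.60, adjusted p = 0.0195 and 0.0121) and of *GPIHBP1* with the adipocyte sum (r = 0.52, adjusted p = 0.0402), each with an adjusted p over 0.05 for rho. Without the 2 farthest animals these r values were 0.33, 0.34 and 0.47, and without *C* replicate 1 they were 0.47, 0.47 and 0.36.

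**Figure D4:**
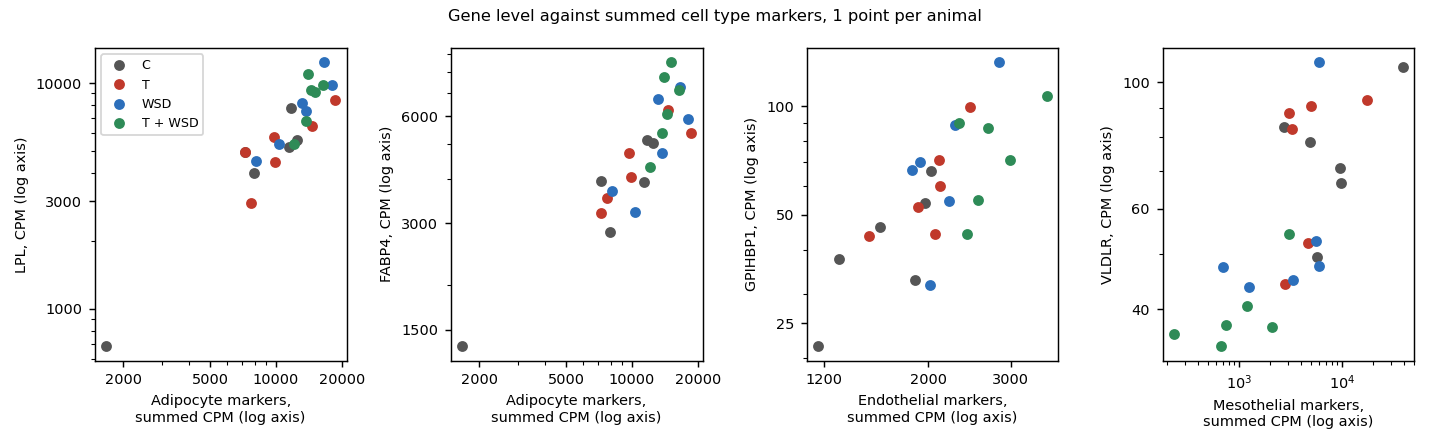
Level of *LPL* and *FABP4* against the summed adipocyte markers, of *GPIHBP1* against the summed endothelial markers and of *VLDLR* against the summed mesothelial markers, in CPM on log axes with 1 point per animal coloured by group. *LPL* and *FABP4* climb with the adipocyte sum in every group, and *C* replicate 1 is the point at the lower left of the first 3 panels. In the last panel 5 of the *T* + *WSD* animals have the lowest *VLDLR* levels, and replicate 11 lies higher, at 54.3 CPM. The mesothelial sums of *T* + *WSD* run from 235 to 3070 CPM, the 3070 CPM being replicate 11. Most of the mesothelial sum is *ITLN1*.

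The genes whose log2 CPM over the 24 animals was most like each of the 8, among 12617 genes with a symbol, are given by Pearson's r as a description, and all these values share the libraries and the groups. For *CD36* these were *MMD* (0.94) and *WFS1* (0.92), and for *FABP4* they were *GNE* (0.91) and *PTH1R* (0.90). *LPL* was most like *RETSAT* (0.94), which encodes retinol saturase, and *CCDC69* (0.93). *ACSL1* was most like *DGAT1* (0.93), whose enzyme makes triglyceride from acyl-CoA, *IVD* (0.93), an enzyme of leucine breakdown, and *SLC2A4* (0.90), the insulin-responsive glucose transporter. *GPIHBP1* had lower maxima, with *CFLAR* (0.84) and *PPP1R1A* (0.82), as had *VLDLR* with *ZNRF3* and *BNC2* (0.82 and 0.81). So had *SLC27A1* with *TOB2* (0.82), *PLCG2* (0.80) and the lipid droplet gene *PLIN5* (0.77), and *SLC27A4* with *IRAK1* (0.81).

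Around these 8 genes stood a list of 46 others with roles in the same path, of which 40 were rows of the table and 33 passed the filter. Between *T* + *WSD* and *C*, 3 of the 33 were higher and 3 lower, where 4.72 and 5.29% of all genes were called. Their median log2 difference was 0.11, and that of all genes -0.04. With edgeR, *LSR* was called in *T* + *WSD* against *T*, and 0 of 33 were called in *WSD* against *C* (7 at an unadjusted p under 0.05, 2 called with DESeq2), in *T* against *C* (2 and 0), in *T* + *WSD* against *WSD* (10 and 2) and in the interaction (3 and 1). Over all genes 18.5, 8.63, 20 and 13.5% had an unadjusted p under 0.05 in these 4 tests. DESeq2 called 238 of 15027, 7 of 24157, 431 of 16445 and 481 of 17391 genes in them.

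Among 7 genes of lipoprotein lipolysis, *LIPG*, which encodes endothelial lipase, was higher in *T* + *WSD* (2.03 ± 0.58, adjusted p = 0.0198). Its level was low, from 0.0413 to 0.613 CPM in *C* and from 0.619 to 1.31 CPM in *T* + *WSD*, which corresponded to 1 to 15 and 3 to 29 counts. *ANGPTL4*, a secreted inhibitor of lipoprotein lipase, had a difference of 0.30 ± 0.34 (adjusted p = 0.579), and *LMF1*, needed for the folding of the lipase, one of 0.11 ± 0.18 (adjusted p = 0.742).

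Of the 6 lipoprotein receptors, *LSR*, the lipolysis-stimulated lipoprotein receptor, fell and *SCARB1*, the HDL receptor, rose. *LSR* ran from 12.97 to 58.7 CPM (median 23.9) in *C*, from 12.7 to 24.1 CPM (median 16.6) in *T*, from 6.96 to 28.3 CPM (median 16.03) in *WSD* and from 2.83 to 10.4 CPM (median 7.68) in *T* + *WSD*. All 6 *T* + *WSD* animals thus lay below every *C* and every *T* animal, as 4.12 and 3.10% of all tested genes did. *LSR* fell by 1.91 ± 0.34 on the log2 scale against *C* (adjusted p = 0.0029) and by 1.26 ± 0.33 against *T* (adjusted p = 0.0299), and its difference from *WSD* was -1.20 ± 0.33 (adjusted p = 0.0621). *SCARB1* rose by 0.77 ± 0.26 (adjusted p = 0.0421) in *T* + *WSD* against *C*, from 165 ± 68.1 to 281 ± 53.1 CPM, and stood at 273 ± 76.3 CPM in *WSD*, a difference from *C* of 0.72 ± 0.26 (adjusted p = 0.167). *LRP1* had an adjusted p of 0.0368 with a log2 difference of 0.56, under the fold-change threshold.

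In membrane uptake, *CAV2*, which encodes a caveolin, rose by 0.78 ± 0.25 (adjusted p = 0.0369), from 292 ± 55.4 CPM in *C* to 503 ± 101 CPM in *T* + *WSD*, while *CAV1* had a difference of 0.03 ± 0.15 and *SLC27A3* one of 0.13 ± 0.15. The other cytosolic binding proteins gave 2 tested genes of 9, *DBI* (0.09 ± 0.29) and *SCP2* (-0.02 ± 0.09), neither of them called, since the related FABP genes of other tissues had too few counts or were not matched. Among 5 acyl-CoA synthetases, *ACSL4*, which prefers polyunsaturated fatty acids, fell by 0.66 ± 0.20 (adjusted p = 0.0269), from 210 ± 57.4 to 133 ± 19.2 CPM, and *ACSBG2* fell by 1.47 ± 0.45 (adjusted p = 0.0286) at a low level, from 1.31 ± 0.526 to 0.455 ± 0.329 CPM. *ACSL3* and *ACSL5*, at 0.31 ± 0.32 and 0.29 ± 0.21, did not pass. Of the 6 transcription factors of the path, 0 were called with edgeR and 0 had an unadjusted p under 0.05, with *PPARG*, the main regulator of adipocyte genes, at 0.32 ± 0.28 (adjusted p = 0.446) and *CEBPA* at 0.33 ± 0.31 (adjusted p = 0.494). Without *C* replicate 1, 2 of the 33 genes were called in *T* + *WSD* against *C*, and without the 8 libraries of the batch 1 was called.

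**Figure D5:**
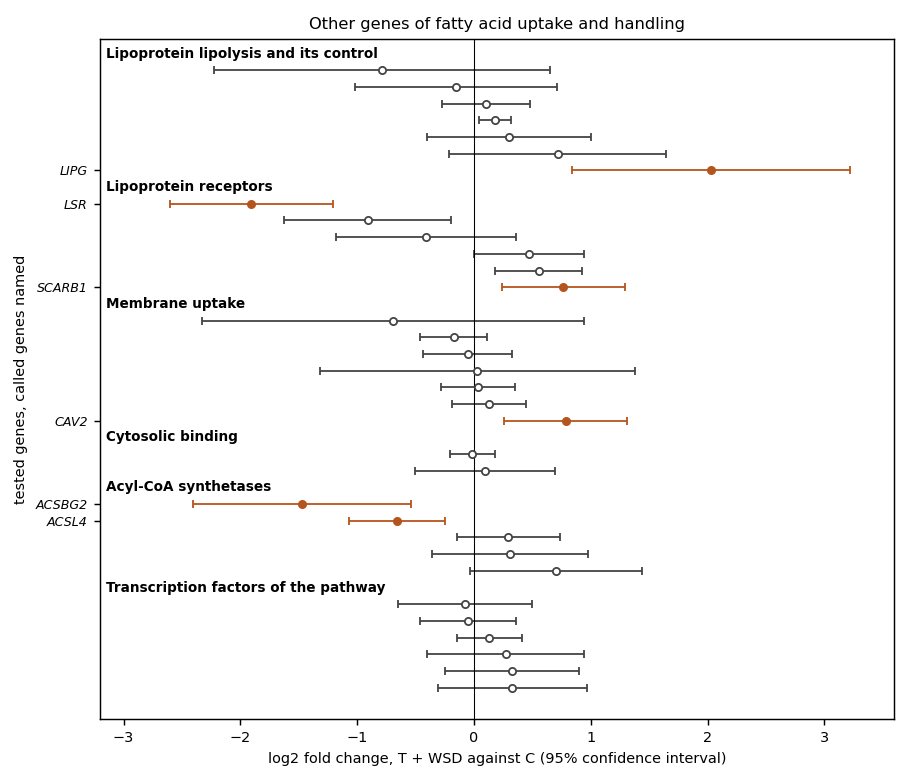
Log2 fold change of *T* + *WSD* against *C* for the 33 other tested genes of fatty acid uptake and handling, by role, each with its 95% confidence interval, filled and named where called. *LIPG*, *SCARB1* and *CAV2* lie above 0 and *LSR*, *ACSL4* and *ACSBG2* below it, while all 6 transcription factors have intervals that include 0.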

How the data were processed

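Single reads came from rRNA-depleted libraries of omental WAT, 1 per animal. Per the labels and methods, reads were checked with FastQC 0.11.5, trimmed with Trimmomatic 0.36 and aligned to rheMac8 with STAR 2.5.2b, and the submitters' processing notes also name DESeq2 1.18.1. The authors deposited raw counts per gene, without normalization. The counting tool and its strand setting are not given in the sources used here. Of 32386 genes, 7255 were at 0 in every library, and no 2 of the 60 library pairs within groups were identical. Totals (6899185 to 28270776) set the counting error, and replicate spread sets the other errors.

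TMM normalization and the quasi-likelihood F-test of edgeR 4.0.16 (R 4.3.3, robust=TRUE, legacy=TRUE) were applied to the counts, in 1 fit of 4 groups with groups taken from the labels. filterByExpr (minimum count 10, minimum total 15) kept 15207 genes, over which p-values, all two-sided, were adjusted by Benjamini-Hochberg. A call needed a fold change over 1.5 with an adjusted p under 0.05, or for the interaction an adjusted p under 0.1. The standard error is the size of the log2 fold change divided by the root of F, and intervals are at 95%. The log2 CPM used for the genes most alike and for the marker list covariates had a prior count of 2. The log2 values used for the relations within groups had no prior count. The test was tested on simulated data with known changes.

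The members, the 46 path genes and the 83 cell type markers (71 in the table) were chosen with earlier results of these data known, so their counts are descriptions. Named were all members, the called genes of each list (at most the 5 with the smallest adjusted p per list and comparison), genes that define a list, and the 3 genes most like each member, some of which are left unnamed. Further uncalled path genes were named after their values were seen. Alternatives were DESeq2 1.42.0, its size factors (RLE), no filter on low counts, only the groups compared, no fold-change threshold, an interaction adjusted p under 0.05, the library batch as a covariate or left out, 3 marker lists as covariates and each animal left out in turn. The batch of 8 libraries (over 5% of counts on 1 gene) was known from earlier results, and the fit of these 8 alone was added after seeing the data. Symbols came from a gene name table and the supplementary tables of the study. No genome, gene lengths or sequences were used here, and the bisulfite sequencing was not analysed here.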

Additional observations from a re-analysis of the deposited data

Results flagged for a closer look

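The highest and lowest animal of each group of 6 were checked with Dixon's test at the 95% level for the 8 genes, which is 32 groups, and chance flags about 1 in 20 groups. An animal stood apart in 3 of them. *VLDLR* was at 108 CPM in *WSD* replicate 24, where the next animal was at 52.7 CPM (gap over range 0.861), and the *T* + *WSD* difference from *WSD* is -0.24 without this animal against -0.52 with it. *VLDLR* was also at 54.3 CPM in *T* + *WSD* replicate 11, where the next animal was at 40.5 CPM (0.693), and without it the difference from *C* is -1.03. *SLC27A1* was at 47.0 CPM in *T* replicate 16, where the next animal was at 30.8 CPM (0.70).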

How the results depend on the processing

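No paired analysis was possible because the groups share no replicate numbers. With 8 genes, 5 comparisons and the interaction, normalization by RLE changed no direction and no call. *VLDLR* stayed lower in *T* + *WSD* than in *C* and *T* in every alternative run, and *FABP4* stayed higher in *T* + *WSD* than in *C*. Where a call was lost the cause was not tested. Without *C* replicate 1 the *FABP4* difference from *C* went from 0.82 ± 0.28 to 0.66 ± 0.24, so its standard error fell as well. Depth limits the genes with few counts, such as *LIPG* and *ACSBG2*.

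The number of the 8 genes called in *T* + *WSD* against *C* was 2, and it was 4 with DESeq2, 1 without the filter on low counts, 1 with only the groups compared, and 0 without the 8 libraries of the batch or with the mesothelial, endothelial or adipocyte list as a covariate. Over all genes, 1894 of 17391 were called with DESeq2, 1361 of 25131 without the filter and 1415 of 14657 with only the groups compared. Leaving out 1 animal gave 1 to 3. Against *T* the number was 1, and it was 2 with only the groups compared, 0 without the 8 libraries and 0 with the mesothelial or endothelial list, and leaving out 1 animal gave 0 to 1.

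Over all tested genes in *T* + *WSD* against *C*, 1522 were called, against 2603 without a fold-change threshold, 78 without the 8 libraries, 2 with the adipocyte list and 0 with the endothelial or mesothelial list, and 900 (without *C* replicate 1) to 1790 leaving out 1 animal. In *WSD* against *C*, 0 were called, 238 with DESeq2, 1 with the batch as a covariate, 1 with only the groups compared, and 0 to 59 leaving out 1 animal, the 59 without *WSD* replicate 19. In *T* against *C*, 0 were called, 7 with DESeq2 and 0 to 1 leaving out 1 animal. Between *T* + *WSD* and *WSD*, 124 were called, 431 with DESeq2, 302 with the adipocyte list, 16 with the endothelial, 1 with the mesothelial, 68 without the filter, 254 without a fold-change threshold, 46 with only the groups compared, 0 without the 8 libraries, and 9 (without *WSD* replicate 24) to 448 (without *WSD* replicate 21) leaving out 1 animal. Between *T* + *WSD* and *T*, 574 were called, 1090 with DESeq2, 988 without a fold-change threshold, 1059 with only the groups compared, 308 without the 8 libraries, 30 with the endothelial and 0 with the mesothelial list, and 238 (without *T* + *WSD* replicate 10) to 828 leaving out 1 animal. In the interaction, 123 were called, 481 with DESeq2, 44 at an adjusted p under 0.05, 55 with the mesothelial list, 38 without the filter, 2 without the 8 libraries, and 40 (without *T* replicate 15) to 527 (without *WSD* replicate 21) leaving out 1 animal.

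Of the 33 other path genes, 6 were called in *T* + *WSD* against *C*, 1 without the 8 libraries, 0 with each of the 3 marker lists, and 2 to 8 leaving out 1 animal. Against *T* it was 1, with 2 for DESeq2, 3 with only the groups compared, 0 with the endothelial or mesothelial list, and 0 to 2 leaving out 1 animal. Counts of 0 became 2 with DESeq2 in *WSD* against *C*, 2 with DESeq2, 3 with the adipocyte list, 1 with only the groups compared and up to 5 leaving out 1 animal (*WSD* replicate 21) in *T* + *WSD* against *WSD*, and 1 with DESeq2 and up to 2 leaving out 1 animal in the interaction.

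Changes of sign were limited to log2 values that had not passed the test. With the adipocyte list they were, in *T* + *WSD* against *C*, *SLC27A1* (-0.091) and *ACSL1* (-0.65), in *WSD* against *C*, *CD36* (-0.029), in *T* against *C*, *CD36* (-0.25), *LPL* (-0.23), *FABP4* (-0.088), *ACSL1* (-0.18) and *VLDLR* (0.13), in *T* + *WSD* against *WSD*, *LPL* (-0.16) and *GPIHBP1* (-0.073), and in the interaction, *LPL* (0.075). With the endothelial list they were, in *T* + *WSD* against *C*, *GPIHBP1* (-0.040), *SLC27A4* (-0.065) and *ACSL1* (-0.20), in *WSD* against *C*, *CD36* (-0.034) and *SLC27A1* (0.0057), in *T* against *C*, *CD36* (-0.15), *LPL* (-0.068) and *VLDLR* (0.14), and for *T* + *WSD*, *LPL* (-0.23) and *GPIHBP1* (-0.29) against *WSD* and *GPIHBP1* (-0.20) against *T*. With the mesothelial list they were, in *T* + *WSD* against *C*, *SLC27A1* (-0.31) and *ACSL1* (-0.27), in *T* against *C*, *VLDLR* (0.070), in *T* + *WSD* against *WSD*, *LPL* (-0.18), *GPIHBP1* (-0.36) and *SLC27A1* (-0.15), against *T*, *GPIHBP1* (-0.33), and in the interaction, *FABP4* (-0.16) and *SLC27A4* (0.010). Without the filter they were *SLC27A4* (-0.0084) and *ACSL1* (-0.0058) in *T* + *WSD* against *C*, *VLDLR* (0.0078) in *T* against *C*, *GPIHBP1* (-0.0037) in *T* + *WSD* against *WSD* and *FABP4* (-0.016) in the interaction. Without the 8 libraries they were *SLC27A1* (-0.069), *SLC27A4* (-0.020) and *ACSL1* (-0.29) in *T* + *WSD* against *C*, *CD36* (-0.10), *LPL* (-0.016), *ACSL1* (-0.24) and *VLDLR* (0.23) in *T* against *C*, *GPIHBP1* (-0.22) in *T* + *WSD* against *WSD*, and *LPL* (0.086) and *SLC27A4* (0.064) in the interaction. In the 8 libraries alone they were *SLC27A1* (0.16) and *SLC27A4* (-0.12) in *T* + *WSD* against *T*.

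Leaving out 1 animal turned the sign of these values, given as the range over 24 fits. In *T* + *WSD* against *C* they were *SLC27A1* (-0.053 to 0.16), *SLC27A4* (-0.033 to 0.068) and *ACSL1* (-0.20 to 0.23), and in *WSD* against *C*, *SLC27A1* (-0.089 to 0.061). In *T* against *C* they were *CD36* (-0.077 to 0.26), *LPL* (-3.65e-05 to 0.43), *SLC27A4* (-0.10 to 0.019), *ACSL1* (-0.074 to 0.36) and *VLDLR* (-0.11 to 0.11). For *T* + *WSD* against *WSD* they were *LPL* (-0.014 to 0.27), *GPIHBP1* (-0.13 to 0.27), *SLC27A1* (-0.035 to 0.16) and *SLC27A4* (-0.13 to 0.00080), and against *T*, *SLC27A4* (-0.0095 to 0.11). In the interaction they were *LPL* (-0.32 to 0.12), *FABP4* (-0.097 to 0.21) and *SLC27A4* (-0.098 to 0.043).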
